A study of Mus musculus with 16 samples.

Results

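The clustered histone genes encode the histone proteins H1, H2A, H2B, H3 and H4 and lie together in clusters on a few chromosomes of the mouse. They were taken here as the protein-coding genes whose name starts with Hist, a cluster number from 1 to 4 and the letter h, and that had at least 10 counts over the 16 libraries. That gave 45 members out of 67 clustered protein-coding histone genes, in a table of 46078 genes. H2A, H2B, H3 and H4 form the spool around which DNA is wound, and H1 binds the DNA where it enters and leaves the spool. Most clustered histone genes are transcribed while DNA is copied in S phase, and their mRNAs end in a short stem-loop, bound by the stem-loop binding protein Slbp, in place of a poly(A) tail. A few of them, Hist1h1c, Hist1h2bc and Hist2h2be among them, are known from earlier work to give polyadenylated mRNAs also, in cells that have stopped dividing.

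Mouse cells described as juxtaglomerular (JG) cells, the renin-making cells of the kidney, were transfected with the microRNA miR-106b or with a control and harvested 48 h later. PolyA RNA was selected with oligo(dT), a step that picks RNAs with a poly(A) tail. Ago2-IP RNA was purified from immunoprecipitates of Ago2, the protein that holds microRNAs in the silencing complex RISC, and no poly(A) selection is described for it. The cells for polyA RNA went straight into Trizol and those for Ago2-IP were trypsinized and lysed, so RNA kind and harvest cannot be told apart. The 4 groups, of 4 libraries each and all at 48 h, are control and miR-106b cells for polyA RNA and the same for Ago2-IP RNA. The methods call the replicates of a group biological and do not say whether they are separate cultures, so each p-value measures the spread between these libraries, which may be partly technical.

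Sequencing depth sets how well a histone mRNA of low abundance can be seen. Reads counted on genes ran from 5692958 to 9459585 per library in polyA control (median 6450099) and from 2815272 to 4554848 in polyA miR-106b (median 3645937.5). They ran from 3501909 to 4616424 in Ago2-IP control (median 3638859.5) and from 2579086 to 3450269 in Ago2-IP miR-106b (median 3264121.5). Where 4 values follow each other for 4 groups, they are in group order: polyA RNA of control and of miR-106b cells, then Ago2-IP RNA of control and of miR-106b cells. Levels are given as counts of a gene per 1000000 counted reads (CPM), scaled by the trimmed mean of M-values (TMM) over all 16 libraries. A member with 0 counts in a library could still be present up to 3 counts, which is 0.278 CPM in the deepest library and 1.24 CPM in the shallowest. Intervals and such floors cover counting error only.

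The cells are a cultured model, and their identity limits what the histone values can say about JG cells in the kidney. Of the JG markers, renin (Ren1) had 0 counts over the 16 libraries and Akr1b7 had 6, while Acta2, Pdgfrb and Rgs5 were the most abundant of the list of 7. All 16 cardiac muscle genes listed were detected, none at 0 counts in the table, and the most abundant, Myh6, averaged 8795, 22618, 43192 and 41617 CPM in group order. Fewer cells of a type and less RNA per cell cannot be told apart in such libraries.

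By type, the 45 members are 5 of 6 H1 genes, 8 of 19 H2A genes, 14 of 17 H2B genes, 8 of 12 H3 genes and 10 of 13 H4 genes. The Hist1 cluster on chromosome 13 holds 55 of the 67 genes and 38 members. Its genes lie between positions 21715763 and 23934851 of the GRCm38 assembly, apart from Hist1h2al at 51202688, which is not a member. Hist2 on chromosome 3 (chr3:96219865-96269141) gave 4 members of 9 genes, Hist3 on chromosome 11 (chr11:58948920-58956830) gave 2 of 2, and Hist4 is the single gene Hist4h4 (chr6:136801553-136804431). Hist2h3c2, an H3 gene, was the member with the fewest counts, 13, and Hist1h4b, an H4 gene, with 9 was the nearest outside; 8 of the 67 genes had 0 counts. All 45 members together had 8540 counts, of which the linker histone gene Hist1h1c held 3751.

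Of the 45 members, 24 were tested and 21 were not. A gene was tested only with at least 1 CPM in at least 3 of the 4 replicates of some group, which 14897 genes reached. For this filter CPM was taken by library size alone, without TMM, so it differs from the CPM printed here. The tested members are 4 H1, 4 H2A, 4 H2B, 4 H3 and 8 H4 genes. For 13 of the 24 the only group that reached this filter was polyA control, so these had to be high there, and a low value elsewhere is partly set by the filter. Another 7 tested members passed in all 4 groups. The most abundant members left untested were the H2B gene Hist1h2bb with 52 counts, the H4 gene Hist1h4j with 46, the H2A gene Hist1h2ak with 43 and the H2B gene Hist1h2bg with 42.

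Per kilobase of counted sequence, Hist1h1c was the most abundant member in each group, with means of 19.1, 34.2, 51 and 48 CPM per kb in group order. The H2A gene Hist1h2ap came near it in polyA control only, at 16.2 CPM per kb against 3.51, 3.39 and 4.09 in the other groups in that order. Hist1h4d, an H4 gene, stood at 13.3, 9.12, 4.05 and 3.59 CPM per kb, and Hist1h4h, another H4 gene, ran the other way at 6.48, 13.4, 18.1 and 19.0. The H2B gene Hist1h2bc had 4.67, 11.8, 15.9 and 17.5 CPM per kb.

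Summed over the 45 members, CPM was 105 ± 15.1 (mean ± SD, n = 4) in polyA RNA of control cells and 108 ± 24.5 with miR-106b. In Ago2-IP RNA the sum was 134 ± 13.6 in control and 137 ± 16 with miR-106b. The sum is split here into the 3 members named above as known to be polyadenylated and the other 42. This split was chosen with earlier results of these data known, and others of the 42 could be polyadenylated too, so the 2 sums are a description only. Hist1h4h, among the 42, runs like the 3, with a ratio of rates of 2.0 between miR-106b and control in polyA RNA and 2.79 between Ago2-IP and polyA control. Hist1h1c, Hist1h2bc and Hist2h2be together had 40.8, 37.6, 33.3 and 36.5 CPM in the polyA control libraries and 55.5, 89, 62.6 and 74.5 in polyA miR-106b. In this sum every polyA miR-106b library was above every polyA control library, which does not hold for Hist2h2be alone. The other 42 members had 70.9, 79.9, 73.5 and 46.8 CPM in polyA control and 23.1, 44.5, 59.7 and 24 in polyA miR-106b. There 3 of the 4 miR-106b libraries lay under all controls, and polyA miR-106b replicate 3 lay among them. As ratios of group means, miR-106b over control in polyA RNA, the 3 genes gave 1.9, the other 42 gave 0.558 and all 45 gave 1.03; without Hist1h1c the last is 0.731.

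**Figure D1:**
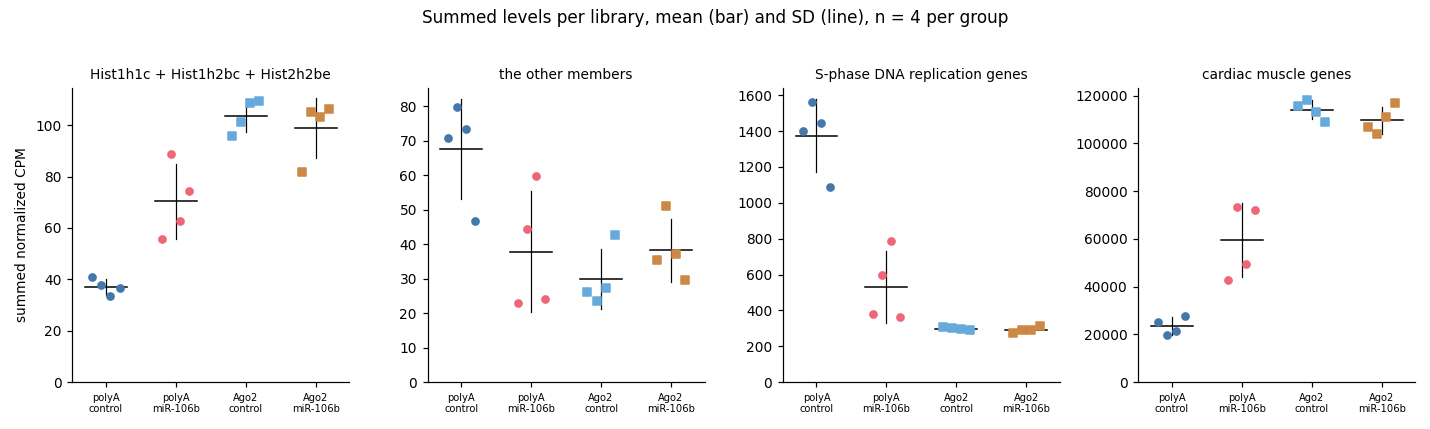
Summed normalized CPM (y) in the 4 groups (x) for the 3 polyadenylated members, the other 42 members, 27 S-phase replication genes and 16 cardiac muscle genes; points are libraries, bars means and vertical lines SD, n = 4. The 3 polyadenylated members average 37.1 CPM in polyA control and 104 in Ago2-IP control, the other 42 members 67.8 and 30.

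In H1 genes the summed means were 44.4, 60.2, 85.7 and 85.2 CPM in group order, most of it from Hist1h1c. H2A members summed to 13.8, 5.30, 3.08 and 4.08 CPM, and H3 members to 8.20, 2.91, 1.47 and 1.91, so both types were highest in polyA control. For H2B the sums were 16.1, 22.3, 28.8 and 28.7 CPM, lowest in polyA control, which Hist1h2bc and Hist2h2be set: the other 12 H2B members summed to 8.78, 5.29, 4.53 and 4.58, highest there, as did the 4 H1 members other than Hist1h1c, at 14.6, 6.88, 6.16 and 10.3. H4 members summed to 22.3, 17.4, 14.7 and 17.4 CPM.

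Does miR-106b change histone mRNAs in polyA RNA? A dividing cell makes core histone mRNA in S phase and destroys it when replication ends, so a culture with fewer replicating cells holds less of it, while polyadenylated histone mRNAs do not depend on S phase in that way. Each gene was compared between polyA miR-106b and polyA control with edgeR's quasi-likelihood F test, two-sided, adjusted over the 14897 genes by the method of Benjamini and Hochberg; "edgeR adjusted p" means this unless another test is named, and a gene is called when it is under 0.05. A range over alternatives holds the adjusted p of each alternative by its own test, DESeq2's Wald and edgeR's likelihood ratio test among them. Of all tested genes, 40.5% were called, 19% higher and 21.5% lower with miR-106b, and of the 24 tested members 10 were called, 2 higher (8.33%) and 8 lower (33.3%). Without polyA miR-106b replicate 3, 15 members were called, 2 higher and 13 lower, and 42.3% of all genes; without polyA control replicate 1, 11 members, 4 higher and 7 lower. The all-gene shares also hang on single libraries: 30.7% of genes were called without polyA control replicate 1, 27.7% without replicate 2 and 28.8% without replicate 3, with 12.3%, 11% and 11.5% lower. Of these calls 59.9%, 60.3% and 60.2% were higher, in place of 47%, so which direction holds most of the all-gene calls changes with 1 library. The median log2 fold change of the 24 was -0.99, against -0.05 over all genes.

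The filter bears on that direction. Of the 13 members that passed the filter in polyA control alone, 7 were called lower. These 7 are Hist1h1b, Hist1h1d, Hist1h2ab, Hist1h2bj, Hist1h3a, Hist1h3c and Hist1h4a, and part of their fall is set by the filter. Of the 410 genes in the table that passed in the same way 20.7% were lower and 0 higher. Median log2 fold changes were -1.38 for the 13 members and -0.93 for the 410 genes. Of the 7 members that passed in every group, 2 were called higher and 1 lower, where 21.3% of the 12333 such genes were higher and 23.6% lower. These 3 are Hist1h1c, Hist1h2bc and Hist1h2ap.

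Hist1h1c (ENSMUSG00000036181, chr13:23738808-23740367, plus strand) encodes the linker histone H1.2. Its libraries read 31.9, 31.5, 27.1 and 28.8 CPM in polyA control and 38.3, 70.2, 47.3 and 57.6 in polyA miR-106b. All 4 miR-106b libraries were above all 4 controls. The fitted difference was log2 fold change 0.71, SE 0.167, edgeR adjusted p = 0.00498, with an exact permutation p = 0.0286 on log2(CPM + 1), the smallest that 70 relabellings of 4 against 4 allow. Its adjusted p in edgeR or DESeq2 ran from 2.42e-05 to 0.0167 over 16 alternatives, with the call kept in each.

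Hist1h1e (ENSMUSG00000051627, chr13:23621755-23622502, minus strand) encodes another linker histone, H1.4, and its mRNA is of the replication-dependent kind. It had 8.94, 9.81, 10.7 and 5.69 CPM in polyA control and 2.61, 7.02, 8.46 and 0.706 in polyA miR-106b. The groups overlap, with polyA miR-106b replicates 2 and 3 inside the control range and replicate 4 near 0. It was not called (log2 fold change -1.0, SE 0.426, edgeR adjusted p = 0.0795); without polyA miR-106b replicate 3 it was called lower at log2 fold change -1.42 (edgeR adjusted p = 0.0224, range over alternatives 0.00241 to 0.243). With all libraries kept it was called lower with the replicate number as a block (edgeR adjusted p = 0.0227), by edgeR's likelihood ratio test (0.0129) and with no filter (0.00241). The 2 other tested H1 genes, Hist1h1b and Hist1h1d, were called lower with overlapping groups. Both passed the filter in polyA control alone. Hist1h1b (ENSMUSG00000058773, chr13:21779883-21780625, minus strand), the H1.5 gene, fell by log2 1.87 (edgeR adjusted p = 0.00744, 0.000114 to 0.0388 over alternatives).

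For Hist1h1d (ENSMUSG00000052565, chr13:23555087-23555830, plus strand), which encodes the linker histone H1.3, polyA control ranged from 1.69 to 3.61 CPM and polyA miR-106b from 0.653 to 2.11. These ranges overlap. The fitted difference was log2 fold change -1.38, SE 0.45, edgeR adjusted p = 0.0265. The call was lost without polyA control replicate 2 (edgeR adjusted p = 0.122) or 3 (0.0991), without polyA miR-106b replicate 1 (0.0829), 2 (0.0617) or 4 (0.0681), and with all 16 libraries in 1 fit (0.0574), in a range of 0.0033 to 0.122. In those 6 fits the value lay between -1.34 and -1.07.

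Hist1h2ap (ENSMUSG00000094777, chr13:21833026-21833507, minus strand) encodes a core H2A protein that many paralogs encode too. Its polyA control libraries read 8.8, 7.49, 8.13 and 6.77 CPM and its polyA miR-106b libraries 1.09, 2.86, 2.11 and 0.706. The lowest control was above the highest miR-106b library. This was log2 fold change -2.29, SE 0.317, edgeR adjusted p = 0.000683, on 26 counts with miR-106b against 249, and exact permutation p = 0.0286. Over alternatives its adjusted p in edgeR or DESeq2 ran from 2.91e-13 to 0.00287. Reads shared with paralogs make this level uncertain, since only 6.9% of the 50-base stretches of its transcript occur in no other gene's transcript. The loci of 4 tested members, Hist1h2ap, Hist1h2ab, Hist1h2ae and Hist1h2be, each overlap a small gene of the table that had 0 counts (AL589879.3, AL590388.1, AC034285.2 and Gm11398), and how reads in such overlaps were assigned is not known.

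Hist1h2ab (ENSMUSG00000061615, chr13:23751126-23751598, plus strand) is a second H2A gene of the Hist1 cluster. It gave 1.54, 1.3, 1.33 and 0.769 CPM in polyA control and 0.218, 0.26, 0 and 0 in polyA miR-106b. Controls were all higher, and 2 miR-106b libraries had 0 counts. Hist1h2ab passed the filter in polyA control alone, so part of this fall is set by the filter. Over the group it had 2 counts with miR-106b against 40, a ratio of rates of 0.106 (95% counting interval 0.0124 to 0.409). The fit gave log2 fold change -3.16, SE 0.702, edgeR adjusted p = 0.00363 (2.61e-05 to 0.0152 over alternatives); the fitted fold of so few counts depends on the small prior count that edgeR adds and is no bound.

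Hist3h2a (ENSMUSG00000078851, chr11:58954685-58956830, plus strand) is an H2A gene outside the large cluster, and its locus overlaps those of Trim17 (56 counts) and AL662809.1 (0 counts), so reads cannot be assigned by strand. It read 0.838, 1.11, 1.33 and 0.923 CPM in polyA control and 2.83, 1.56, 0.528 and 1.77 in polyA miR-106b. All miR-106b libraries but replicate 3 were above the controls, and that was under them. No difference was called (log2 fold change 0.55, SE 0.458, edgeR adjusted p = 0.361, 0.112 to 0.772 over alternatives).

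Hist1h2bc (ENSMUSG00000018102, chr13:23684199-23692488, plus strand) encodes a core H2B protein. Its libraries had 5.45, 4.81, 5.47 and 5.85 CPM in polyA control and 13.9, 15.6, 11.1 and 13.8 in polyA miR-106b. Every miR-106b library was higher than every control. It was the member with the largest rise (log2 fold change 1.21, SE 0.18, edgeR adjusted p = 0.000683, exact permutation p = 0.0286), and the adjusted p in edgeR or DESeq2 ran from 1.78e-09 to 0.00287 over alternatives. Hist1h2ac, the H2A gene that shares its promoter stretch head to head, had 14 counts over the 16 libraries against 872 for Hist1h2bc and was not tested.

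Hist2h2be (ENSMUSG00000068854, chr3:96221119-96223738, plus strand) is the H2B gene of the Hist2 cluster with a long annotated 3′UTR. It had 3.49, 1.39, 0.8 and 1.85 CPM in polyA control and 3.27, 3.12, 4.23 and 3.18 in polyA miR-106b. Control replicate 1 lay among the miR-106b libraries and the 3 other controls lay under them. It was not called (log2 fold change 0.77, SE 0.407, edgeR adjusted p = 0.152); without polyA control replicate 1 it was called higher at 1.32 (edgeR adjusted p = 0.0211, range over alternatives 0.0176 to 0.27). With all libraries kept, edgeR's likelihood ratio test called it higher (edgeR adjusted p = 0.0176).

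Another H2B gene, Hist1h2bj (ENSMUSG00000069300, chr13:22043214-22043676, plus strand), ranged from 1.08 to 2.5 CPM in polyA control and from 0 to 1.59 in polyA miR-106b. The ranges overlap at replicate 3 of miR-106b. Hist1h2bj passed the filter in polyA control alone. It was called lower (log2 fold change -1.86, SE 0.643, edgeR adjusted p = 0.0342), and without polyA miR-106b replicate 3 the value was -3.35 (edgeR adjusted p = 0.00294). The call was lost without polyA control replicate 1 (edgeR adjusted p = 0.0758), 2 (0.129) or 3 (0.0779) and without polyA miR-106b replicate 1 (0.0888), 2 (0.0896) or 4 (0.077), and the range over alternatives was 0.00013 to 0.129. The value in those 6 fits lay between -1.8 and -1.47.

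Hist1h3c (ENSMUSG00000069310, chr13:23745013-23745501, minus strand) encodes a core H3 protein. It read 1.68, 3.61, 2.13 and 1.54 CPM in polyA control and 0.435, 0.26, 0.793 and 0.353 in polyA miR-106b. All controls were above all miR-106b libraries. Hist1h3c passed the filter in polyA control alone, so part of this fall is set by the filter. The difference was log2 fold change -2.38, SE 0.518, edgeR adjusted p = 0.00317, on 7 counts with miR-106b against 77, and exact permutation p = 0.0286. The adjusted p in edgeR or DESeq2 stayed between 9.7e-05 and 0.0186 over alternatives.

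The H3 gene Hist1h3a (ENSMUSG00000069265, chr13:23761853-23762386, minus strand) had 1.54, 1.67, 1.73 and 0.923 CPM in polyA control and 0.653, 0.26, 0.264 and 0 in polyA miR-106b. Here too the groups do not overlap, and miR-106b replicate 4 is at 0. Like Hist1h3c, this gene passed the filter in polyA control alone. It was called lower (log2 fold change -2.23, SE 0.581, edgeR adjusted p = 0.00884, 0.000218 to 0.036 over alternatives), on 5 counts with miR-106b against 48. Without polyA miR-106b replicate 1 the fitted value was -2.87 (edgeR adjusted p = 0.00587).

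Another H3 gene, Hist1h3e (ENSMUSG00000069273, chr13:23561534-23562369, minus strand), had 1.26, 1.57, 1.6 and 0.615 CPM in polyA control and 0, 0.52, 1.32 and 0.353 in polyA miR-106b. These groups overlap through miR-106b replicate 3. It was not called (log2 fold change -1.36, SE 0.657, edgeR adjusted p = 0.117); without polyA miR-106b replicate 3 it was called lower at -2.31 (edgeR adjusted p = 0.0291, range over alternatives 0.0121 to 0.289), and with every library in by edgeR's likelihood ratio test (0.0121).

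Hist1h4h (ENSMUSG00000060981, chr13:23531050-23531522, plus strand) encodes H4, whose many genes all make the same protein. It read 4.47, 3.42, 2.67 and 1.69 CPM in polyA control and 3.05, 10.7, 6.61 and 4.94 in polyA miR-106b. Of the miR-106b libraries, 3 were above all controls and replicate 1 was among them. No change was called (log2 fold change 0.89, SE 0.38, edgeR adjusted p = 0.0766), though it was called higher without polyA control replicate 1 at 1.2 (edgeR adjusted p = 0.0454) and without polyA miR-106b replicate 1 at 1.24 (0.00997), within 0.00997 to 0.322 over alternatives. No filter (edgeR adjusted p = 0.0189) and all 16 libraries in 1 fit (0.0292) gave the call as well.

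Hist1h4d (ENSMUSG00000061482, chr13:23581598-23581990, plus strand), a second H4 gene, had 6.57, 6.85, 5.33 and 2.15 CPM in polyA control and 1.96, 3.12, 8.19 and 1.06 in polyA miR-106b. Replicate 3 of miR-106b was above every control, and the other miR-106b libraries were mostly under them. It was not called (log2 fold change -0.66, SE 0.492, edgeR adjusted p = 0.306), and without polyA miR-106b replicate 3 it was called lower at -1.45 (edgeR adjusted p = 0.0239, range over alternatives 0.0108 to 0.624). The likelihood ratio test of edgeR called it lower with all libraries (edgeR adjusted p = 0.0108).

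The H4 gene Hist1h4a (ENSMUSG00000060093, chr13:23760692-23761230, minus strand) read 1.4, 0.74, 1.87 and 0.923 CPM in polyA control and 0, 0, 0.528 and 0 in polyA miR-106b. Only miR-106b replicate 3 had any counts, 2 against 38 over the controls, a ratio of rates of 0.112 (95% counting interval 0.0131 to 0.432). The fit gave log2 fold change -3.11, SE 0.849, edgeR adjusted p = 0.0111 (7.01e-05 to 0.04 over alternatives). Hist1h4a passed the filter in polyA control alone, so part of this fall is set by the filter. Without polyA miR-106b replicate 3 the fitted value was -5.96 (edgeR adjusted p = 0.00554).

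**Figure D2:**
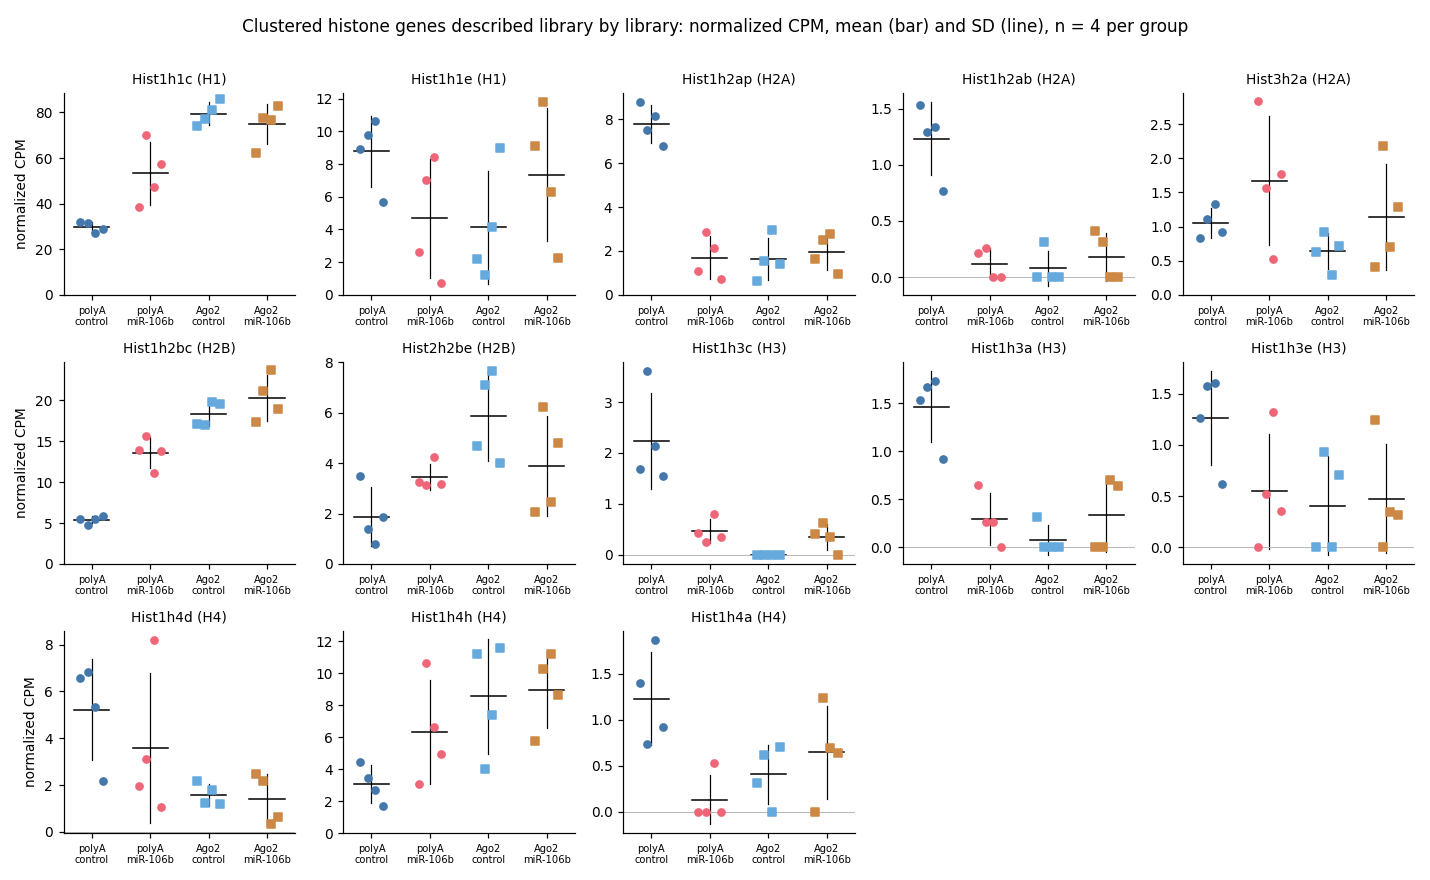
Normalized CPM (y) of 13 clustered histone genes in the 4 groups (x); points are libraries, horizontal bars means and vertical lines SD, n = 4. Hist1h2bc reads 4.81 to 5.85 CPM in polyA control and 11.1 to 15.6 in polyA miR-106b, and Hist1h2ap 6.77 to 8.8 and 0.706 to 2.86.

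The called members are placed on chromosome 13 as follows. Hist1h1c (chr13:23738808-23740367) was higher with miR-106b, and Hist1h3c, called lower, starts at 23745013 and Hist1h2ab, also called lower, at 23751126. The 2 members called higher are both in this cluster, as are the 8 called lower. With all libraries no tested member of Hist2, Hist3 or Hist4 was called in polyA RNA, but without polyA miR-106b replicate 3 Hist2h4 was called lower at -1.17 (edgeR adjusted p = 0.0488) and without polyA control replicate 1 Hist2h2be higher at 1.32 (0.0211). Hist4h4 was called lower with no filter (edgeR adjusted p = 0.0305) and with the replicate number as a block (0.0476). Of the 8 called lower, all but Hist1h2ap passed the filter in polyA control alone, where 20.7% of such genes were lower and 0 higher, so no pattern along the chromosome is drawn from these directions.

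**Figure D3:**
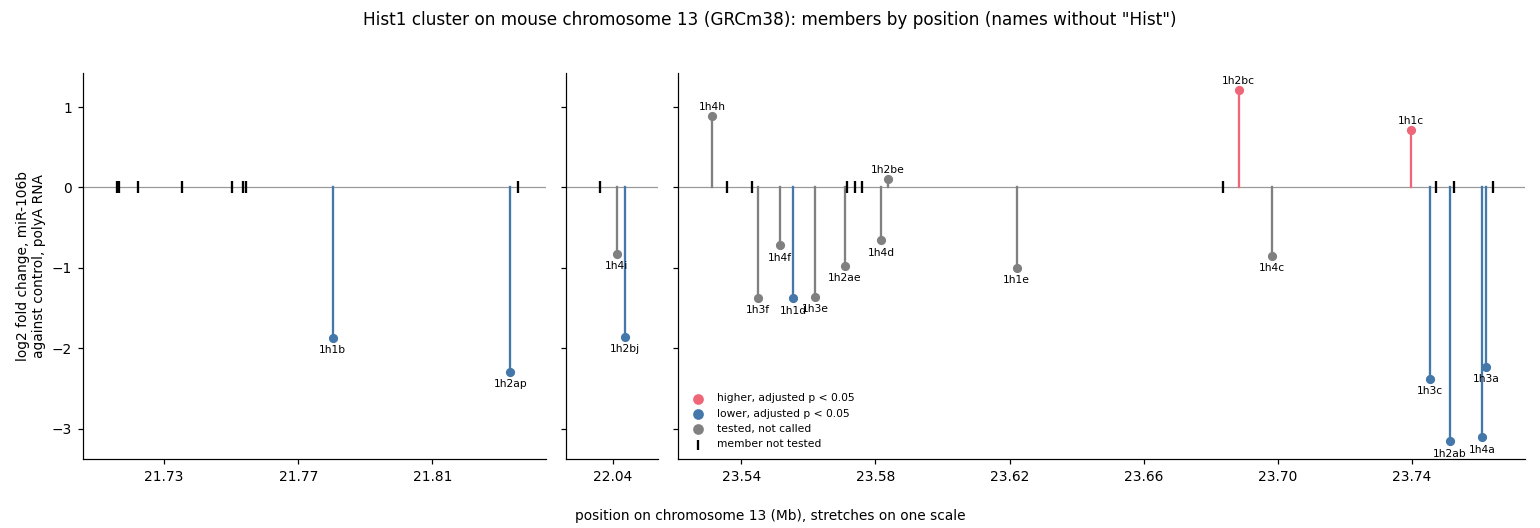
Log2 fold change in polyA RNA, miR-106b against control (y), of tested clustered histone genes by position on chromosome 13 in Mb (x, 3 stretches on 1 scale); red called higher, blue called lower, grey not called, ticks members not tested; Hist1h3c and Hist1h2ab passed the filter in polyA control alone. Hist1h1c at 0.71 lies near Hist1h3c at -2.38 and Hist1h2ab at -3.16.

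Genes of S phase were looked at beside the members. Of 27 S-phase replication genes, most abundant Mcm7, Mcm2 and Pold1, 26 were called lower and 0 higher, with a median log2 fold change of -1.46. Their summed level read 1401, 1562, 1443 and 1086 CPM in polyA control and 377, 595, 787 and 364 in polyA miR-106b, the highest miR-106b library again being replicate 3. All 8 listed genes of cycling cells, led by Mki67, Top2a and Aurkb, were called lower (median -1.91). Of the 8 members called lower, 7 passed the filter in polyA control alone, and of the 7 members passing in all groups 1 was lower and 2 higher, so the members are not set in parallel with these lists. A shared reason was not tested.

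Markers of other cells moved as well. All 16 cardiac muscle genes were called higher in polyA RNA (median 1.23), led by Myh6, Atp2a2 and Actc1, and none of them had 0 counts. Their summed level was 25378, 19696, 21248 and 27629 CPM in polyA control and 42938, 73368, 49502 and 72117 in polyA miR-106b. Endothelial genes were higher in 4 of 4 (median 1.18; Cdh5, Kdr, Pecam1), macrophage genes in 4 of 4 (median 1.20; Csf1r, Cd68, Adgre1) and red blood cell genes in 2 of 3 (median 1.24; Hbb-bs, Hba-a1, Alas2). Of 5 tested JG genes 4 were higher (median 1.08). The part of these markers in the values of Hist1h1c, Hist1h2bc and the other members was not tested.

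Variant histone genes, and genes that act on histone mRNA and protein, were counted in the same comparison. Over all genes 19% were higher and 21.5% lower there, shares that change with 1 library, as given above. Of 11 tested variant and replication-independent histone genes, led by H1f0, H3f3b and H3f3a, 7 were lower and 0 higher (median -0.39), unlike Hist1h1c and Hist1h2bc. Of 25 tested genes of histone mRNA 3′ processing and decay, led by Sympk, Upf1 and Srrt, 13 were lower and 0 higher (median -0.48). They include Slbp (log2 fold change -0.75, edgeR adjusted p = 0.00784) and Npat (-0.63, edgeR adjusted p = 0.0216), a coactivator of histone gene transcription, while the U7 RNA gene Rnu7 had 0 counts. Of 25 histone chaperone genes, led by Cabin1, Nap1l4 and Ipo4, 20 were lower and 1, Nap1l4, higher (median -0.59). The testis histone genes Hist1h1t, Hist1h2aa and Hist1h2ba had 6 counts together and were not tested.

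Does miR-106b change the histone mRNAs found with Ago2? A microRNA target is expected to gain in Ago2-bound RNA when its microRNA is supplied. The seed of miR-106b, bases 2 to 8, is what mostly guides this choice. In Ago2-IP RNA, edgeR's quasi-likelihood test called 0 of 24 tested members and 0% of all tested genes (0 higher, 0 lower), with unadjusted p under 0.05 for 0 members and 826 genes. The member median was 0.35 (range -2.07 to 3.31) against 0.00 over all genes. Members called were 0 also with DESeq2's Wald test and with edgeR's likelihood ratio test, which called 2 and 18 of all genes, and 0 with every library left out in turn. With so few counts for most members, a change could be missed.

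Hist1h1c was level between the Ago2-IP groups, with 74.2, 77.2, 81.1 and 85.7 CPM in control and 62.3, 77.7, 76.9 and 82.7 with miR-106b. The ranges overlap (log2 fold change -0.06, SE 0.0857, edgeR adjusted p = 0.959). Hist1h2bc read 17.1, 17, 19.8 and 19.6 CPM in Ago2-IP control and 17.3, 21.1, 23.8 and 18.9 in Ago2-IP miR-106b. These overlap also (log2 fold change 0.16, SE 0.16, edgeR adjusted p = 0.947). Hist1h3c had 0 counts in the Ago2-IP control libraries and 4 with miR-106b, without a call (edgeR adjusted p = 0.889); the exact 95% counting limit of that ratio, 0.799, is under 1. Hist1h4c had 14 counts with miR-106b against 5, in groups that do not overlap (exact permutation p = 0.0286), again without a call (edgeR adjusted p = 0.889).

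Summed over the 3 polyadenylated members, Ago2-IP control read 96, 101, 109 and 109 CPM and Ago2-IP miR-106b 81.7, 105, 103 and 106. Only miR-106b replicate 1 was under the controls. The other 42 members had 26.2, 23.5, 27.4 and 42.7 and 35.5, 51, 37 and 29.5 CPM, overlapping ranges. The ratio of group means, miR-106b over control, was 0.955 for the 3 genes and 1.28 for the 42. In none of the related or cell type lists was any gene called in this comparison.

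Which histone mRNAs are over-represented in Ago2-IP RNA beside polyA RNA under control transfection? Oligo(dT) picks RNAs by a tail that stem-loop histone mRNAs lack, and no such step is described for Ago2-IP RNA, so the kinds of RNA differ in more than Ago2. In the edgeR fit of all 16 libraries, 69.7% of all genes were called, 35.1% higher and 34.6% lower in Ago2-IP, and 15 of the 24 members were, 4 higher (16.7%) and 11 lower (45.8%). The filter sets part of these member shares, as given next, so they are not read against those of all genes. Medians were -1.49 for the 24 and -0.03 over all genes. This comparison shares the polyA control libraries with the first one, so the directions in the 2 are not independent.

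The filter weighs here too. Of the 13 members passing in polyA control alone, 7 were lower (median -1.75). These 7 are Hist1h1b, Hist1h1d, Hist1h2ab, Hist1h2ae, Hist1h3a, Hist1h3c and Hist1h4c, and part of their difference is set by the filter. Of the 410 genes passing that way 48.8% were lower and 0 higher (median -1.53). Of the 7 members passing in all groups 4 were higher and 1 lower, where such genes overall were 36.3% higher and 36.1% lower. Scaled by library size alone, all genes shift to a median of -0.35 and 37.9% of calls are higher in place of 50.3%.

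Of the H1 genes, Hist1h1c was higher in every Ago2-IP control library, 74.2 to 85.7 CPM, than in any polyA control library, 27.1 to 31.9. The difference was log2 fold change 1.42, SE 0.137, edgeR adjusted p = 2.21e-09 (1.57e-28 to 1.19e-07 over alternatives). Hist1h1b was lower at -2.17 (SE 0.567, edgeR adjusted p = 0.00164), between 3.79e-05 and 0.00748 over alternatives. Hist1h1d was lower at -1.53 (SE 0.548, edgeR adjusted p = 0.0163), but not without polyA control replicate 2 (edgeR adjusted p = 0.0542) or Ago2-IP control replicate 3 (0.0594), where it was -1.34 and -1.14, from a low of 0.00303.

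Among H2A genes, Hist1h2ap had 0.623, 1.54, 2.95 and 1.42 CPM in Ago2-IP control, all under its polyA control libraries. It was called lower (log2 fold change -2.24, SE 0.365, edgeR adjusted p = 8.28e-06, 9.22e-14 to 8.07e-05 over alternatives). Hist1h2ab had 1 count in Ago2-IP control against 40 in polyA control, a ratio of rates of 0.0568 (95% counting interval 0.0014 to 0.335; edgeR adjusted p = 0.000738, 5.62e-06 to 0.00437 over alternatives). Without Ago2-IP control replicate 2, which holds that count, its fitted value goes from -3.69 to -5.56. Hist1h2ae (ENSMUSG00000069272, chr13:23570662-23571121, minus strand), likewise an H2A gene, had 1 count against 35, a ratio of 0.0649 (0.0016 to 0.386; edgeR adjusted p = 0.00341, 0.000146 to 0.0123 over alternatives), and its fitted -3.53 becomes -5.37 without Ago2-IP control replicate 4.

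For H2B, Hist1h2bc read 17.1, 17, 19.8 and 19.6 CPM in Ago2-IP control. Each of these is well above the 4.81 to 5.85 CPM of polyA control. It was called higher (log2 fold change 1.77, SE 0.164, edgeR adjusted p = 9.98e-10, 3.02e-27 to 2.28e-08 over alternatives). Hist2h2be had 4.67, 7.1, 7.67 and 4.01 CPM in Ago2-IP control, above every polyA control library, the highest of which was 3.49. Its difference was log2 fold change 1.64, SE 0.381, edgeR adjusted p = 0.000542 (1.16e-06 to 0.00368 over alternatives).

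Of the 4 tested H3 members, all of which passed the filter in polyA control alone, 2 were called lower in Ago2-IP control. Hist1h3c had 0 counts there against 77 in polyA control, at least 11.3-fold lower against 3 counts over the group, or 8.97-fold by the exact 95% counting limit (edgeR adjusted p = 9.27e-06, 7.74e-10 to 6.03e-05 over alternatives). Hist1h3a had 1 count against 48, a ratio of rates of 0.0473 (95% counting interval 0.00117 to 0.277; edgeR adjusted p = 0.000475, 5.15e-07 to 0.00301 over alternatives). Its fitted -3.93 goes to -5.81 without Ago2-IP control replicate 1. Hist1h3e (log2 fold change -1.54, edgeR adjusted p = 0.0763, 0.0155 to 0.195 over alternatives) and Hist1h3f (-1.16, edgeR adjusted p = 0.207, 0.0947 to 0.418) were not called. Without Ago2-IP control replicate 2, Hist1h3e was called lower at -2.13 (edgeR adjusted p = 0.0456), and with all libraries by edgeR's likelihood ratio test (0.0155), by library size alone (0.0337) and with the 8 control libraries only (0.0414).

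H4 members went both ways. Hist1h4h had 11.2, 4.01, 7.37 and 11.6 CPM in Ago2-IP control, overlapping polyA control at its lowest library. It was called higher (log2 fold change 1.47, SE 0.357, edgeR adjusted p = 0.000885, 1.69e-05 to 0.00679 over alternatives; exact permutation p = 0.0571). Hist1h4d had 2.18, 1.23, 1.77 and 1.18 CPM, low beside most polyA control libraries, and was called lower at -1.73 (SE 0.523, edgeR adjusted p = 0.00556), 5.99e-06 to 0.0221 over alternatives. Hist1h4c (ENSMUSG00000060678, chr13:23698060-23698454, minus strand) was lower at -2.3 (SE 0.687, edgeR adjusted p = 0.00489), 0.000131 to 0.0186 over alternatives.

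The last 2 H4 calls were close to the threshold and were lost with a library fewer, while the value stayed negative. Hist2h4 (ENSMUSG00000091405, chr3:96261682-96263311, minus strand) was lower at -1.17 (SE 0.468, edgeR adjusted p = 0.0303), but not without polyA control replicate 2 (edgeR adjusted p = 0.136) or Ago2-IP control replicate 1 (0.0951), 2 (0.061) or 4 (0.0898), from a low of 0.00704. Its value in those fits was -0.86, -0.95, -1.13 and -1.01. Hist4h4 was lower at -1.36 (SE 0.59, edgeR adjusted p = 0.0452), with a range of 0.00287 to 0.159 over alternatives. The call of Hist4h4 was lost without polyA control replicate 2 (edgeR adjusted p = 0.0522), 3 (0.0539) or 4 (0.159), polyA miR-106b replicate 4 (0.0504) or Ago2-IP control replicate 1 (0.119), 2 (0.101) or 3 (0.136). In those 7 fits the value of Hist4h4 lay between -1.44 and -0.97. Without Ago2-IP control replicate 4 it was -2.43 (edgeR adjusted p = 0.0046).

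The ratio of summed CPM, Ago2-IP over polyA in control, was 2.8 for the 3 polyadenylated members, 0.442 for the other 42 and 1.28 for all 45. Without Hist1h1c the ratio of all members reverses, to 0.722. S-phase genes were lower in 27 of 27 (median -2.22), with summed Ago2-IP control levels of 306, 301, 295 and 289 CPM, and cycling genes in 8 of 8 (median -2.83). Cardiac genes were higher in 16 of 16 (median 2.29), with summed levels of 115821, 118303, 113313 and 108913 CPM, and their part in the histone values was not tested. Endothelial genes were higher in 4 of 4 (2.18), macrophage genes in 4 of 4 (2.23), red blood cell genes in 3 of 3 (2.18), and 4 JG genes were higher and 1 lower (2.22). Variant histones were lower in 10 of 11 (median -1.0), 3′ processing genes in 17 of 25 with 1 higher (-0.63), and chaperones in 21 of 25 with 1 higher (-0.85).

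The same comparison was made with miR-106b, and fewer calls there do not show that fewer members differed. Of all genes 46.4% were called, 21.9% higher and 24.5% lower in Ago2-IP miR-106b than in polyA miR-106b. Of the 24 members 2 were, both higher (8.33%), which is less than over all genes in either direction. The member median was 0.12 against -0.04, and by library size alone the all-gene median is -0.19, with 34% of calls higher in place of 47.3%. Members low in both groups could not easily be called here, and 13 of the 24 were tested only through polyA control, a group that is not compared here.

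Hist1h1c read 62.3, 77.7, 76.9 and 82.7 CPM in Ago2-IP miR-106b against 38.3, 70.2, 47.3 and 57.6 in polyA miR-106b. All Ago2-IP libraries but replicate 1 were above all polyA libraries. The difference was log2 fold change 0.5, SE 0.138, edgeR adjusted p = 0.00511 (0.000228 to 0.0359 over alternatives; exact permutation p = 0.0571). Hist1h2bc had 17.3, 21.1, 23.8 and 18.9 CPM in Ago2-IP miR-106b, all above its polyA miR-106b libraries, and log2 fold change 0.58, SE 0.161, edgeR adjusted p = 0.00521 (0.000967 to 0.0364 over alternatives).

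The summed ratio, Ago2-IP over polyA with miR-106b, was 1.41 for the 3 polyadenylated members, 1.01 for the other 42 (0.895 to 1.25 over alternatives) and 1.27 for all 45. Of S-phase genes 15 were lower (median -0.77), their summed Ago2-IP miR-106b level being 277, 288, 288 and 311 CPM, and of cycling genes 5 (-1.26). Cardiac genes were higher in 16 of 16 (0.89), with summed levels of 106966, 103738, 110946 and 116947 CPM, endothelial genes in 4 of 4 (0.88), macrophage genes in 4 of 4 (0.94) and red blood cell genes in 2 of 3 (0.79). Of JG genes 3 were higher and 1 lower (0.75). Variant histones were lower in 10 of 11 (-0.64), 3′ processing genes lower in 10 and higher in 1 (-0.40), and chaperones lower in 10 and higher in 1 (-0.51).

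Does miR-106b change the ratio of Ago2-IP to polyA RNA? Such a ratio is meant to show how much of an mRNA sits in RISC beside how much there is, and it moves as well when polyA RNA alone moves. The test is the interaction of RNA kind and transfection in the edgeR fit of all 16 libraries. Of all genes 27.3% were called, 7.61% with a higher ratio and 19.7% with a lower one. Of the 24 members 7 were called, 5 higher (20.8%) and 2 lower (8.33%). The filter sets part of these member shares too, so no contrast with all genes is drawn from them. The member median was 1.23 against -0.07 over all genes.

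No member was called between the Ago2-IP groups, which with these counts is not the same as no change. The 5 members with a higher ratio all had a positive fitted difference there: Hist1h3c on 4 counts with miR-106b against 0, Hist1h3a 1.81 on 4 against 1, Hist1h1d 1.16 on 24 against 13, Hist1h4a 0.66 on 8 against 6 and Hist1h2ap 0.29 on 23 against 23. The ratio change contains this difference, so choosing members by a higher ratio favours a positive sign. No gain in Ago2-IP RNA is drawn from these signs. Of the 5, all but Hist1h2ap passed the filter in polyA control alone. So 4 of the 13 members passing that way had a higher ratio and 0 a lower one (median 2.39), where 5.12% of the 410 such genes had a higher ratio and 0 a lower one (median 1.05). Of the 7 members passing in all groups, 1 had a higher ratio and 2 a lower one. Among all genes passing in all groups 8.5% had a higher and 22.7% a lower ratio. What sets these ratios was not tested. The number called was 4 without polyA control replicate 3, without polyA miR-106b replicate 4 or without Ago2-IP control replicate 3, against 7 with all libraries. Of all genes 22.9%, 23% and 25% were called in those 3 fits, against 27.3% with all libraries. DESeq2's Wald test called 4 as well, Hist1h2ap and Hist1h1d higher and Hist1h1c and Hist1h2bc lower; it gave no adjusted p for Hist1h3c, Hist1h3a and Hist1h4a, so their ranges over alternatives leave it out. By library size alone the all-gene median is 0.10 and 46.5% of calls are higher in place of 27.9%; with TMM inside each RNA kind it is 0.08 and 45%.

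Hist1h1c had a lower ratio with miR-106b, -0.92 (SE 0.194, edgeR adjusted p = 0.000921), 1.16e-05 to 0.00748 over alternatives, and Hist1h2bc too, -1.2 (SE 0.229, edgeR adjusted p = 0.000369), 1.9e-06 to 0.00365. Both were higher in polyA miR-106b than in polyA control and without a call in Ago2-IP. Hist2h2be went the same way without a call (log2 -1.44, edgeR adjusted p = 0.06). It was called without polyA control replicate 1 at -1.9 (edgeR adjusted p = 0.0126), Ago2-IP control replicate 4 at -1.59 (0.0447) or Ago2-IP miR-106b replicate 2 at -1.76 (0.0324), and by edgeR's likelihood ratio test (0.00669), in a range up to 0.121.

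Hist1h2ap had a higher ratio, 2.43 (SE 0.608, edgeR adjusted p = 0.00401), 3.53e-05 to 0.0168 over alternatives. Its Ago2-IP miR-106b libraries read 1.65, 2.49, 2.8 and 0.961 CPM, near those of Ago2-IP control, so its ratio is higher where its polyA level is lower. Hist1h3c was called too, with an edgeR adjusted p = 0.00887 (0.00169 to 0.0414 over alternatives), but not by DESeq2's Wald test, which gave it no adjusted p. Its fitted change, 6.0, includes a group at 0 counts and is no estimate of size.

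The 3 other calls were close to the threshold and were lost with many of the libraries left out, while the values moved little in those fits. Hist1h1d, 2.39 (SE 0.818, edgeR adjusted p = 0.0318), lost its call without polyA control replicate 2 (edgeR adjusted p = 0.0691) or 3 (0.0605), polyA miR-106b replicate 4 (0.0572), Ago2-IP control replicate 3 (0.0567) or Ago2-IP miR-106b replicate 1 (0.0795) or 2 (0.0924), from a low of 0.00623. Its value in those 6 fits lay between 2.0 and 2.26. Hist1h4a, 3.6 (SE 1.3, edgeR adjusted p = 0.0411), lost it without polyA control replicate 1 (edgeR adjusted p = 0.0597) or 3 (0.0752), polyA miR-106b replicate 1 (0.0697), 2 (0.0707) or 4 (0.0733), Ago2-IP control replicate 1 (0.063) or 3 (0.0663) or Ago2-IP miR-106b replicate 2 (0.135), 3 (0.0636) or 4 (0.0577), from a low of 0.00239. In those 10 fits its value lay between 3.1 and 3.64, and it lost the call also with the replicate number as a block (edgeR adjusted p = 0.0614). Without polyA miR-106b replicate 3 the value of Hist1h4a was 6.16 (edgeR adjusted p = 0.0089).

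Hist1h3a had 1 count in Ago2-IP control and has the highest adjusted p of them, 4.0 (SE 1.5, edgeR adjusted p = 0.0498), from 0.0106 to 0.163 over alternatives. Leaving out polyA control replicate 1, 2 or 3 lost its call (edgeR adjusted p = 0.0649, 0.0747, 0.0724), as did polyA miR-106b replicate 2, 3 or 4 (0.0646, 0.0578, 0.0742). So did leaving out Ago2-IP control replicate 2, 3 or 4 (edgeR adjusted p = 0.0842, 0.0858, 0.0908) or Ago2-IP miR-106b replicate 3 or 4 (0.163, 0.157). In those 11 fits its value lay between 3.46 and 3.99. The call was lost with all libraries kept, too, with the replicate number as a block (edgeR adjusted p = 0.0644) and with no filter (0.0741). Without polyA miR-106b replicate 1 the value was 4.70 (edgeR adjusted p = 0.027), and without Ago2-IP control replicate 1 it was 5.87 (0.0277).

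Among the lists, the ratio was higher in 17 of 27 S-phase genes (median 1.35), 3 of 8 cycling genes (1.45), 4 of 11 variant histones (0.29), 4 of 25 processing genes (0.21) and 11 of 25 chaperones with 1 lower (0.45). It was lower in 16 of 16 cardiac genes (-1.40), 4 of 4 endothelial (-1.32), 3 of 4 macrophage (-1.40), 2 of 3 red blood cell (-1.44) and 4 of 5 JG genes (-1.26). The part of these cell markers in the ratios of Hist1h1c and Hist1h2bc was not tested.

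How the members' mRNAs end was read from GENCODE M21 transcripts (GRCm38), where 65 of the 67 gene identifiers were found, all but Hist1h2bh and Hist1h2bm. A 16-base stem-loop was searched for, with GG, CT, T, AG and CC in that order and fixed spacing. It was found past the stop codon in 42 of the 67 genes, 31 of them members. Another 17 genes, 8 of them members, had no annotated 3′UTR to search, Hist1h2bh and Hist1h2bm included. Only 8 genes, 6 of them members, had an annotated 3′UTR without a match. Of the 42, 24 genes carry the first form below and 7, all H4 genes, the second. The next is carried by 6 genes, among them Hist1h3c. Capitals mark the 4-base loop, and lower case the paired stem; they are shown because the stem-loop is what replaces the tail.
stem-loop of 24 genes: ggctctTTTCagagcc
stem-loop of 7 H4 genes: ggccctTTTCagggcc
stem-loop of 6 genes: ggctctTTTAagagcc
stem-loop of Hist1h4i and Hist2h4: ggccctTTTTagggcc
stem-loop of Hist1h4b and Hist1h4j: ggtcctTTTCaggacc

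Hist1h1c has both features, a stem-loop 24 bases past its stop codon and 840 annotated bases beyond it. Hist1h2bc, Hist1h4a and Hist2h2be have an annotated 3′UTR (742, 154 and 2192 bases) in which no stem-loop was found. Of these 3, Hist1h2bc was called higher and Hist1h4a lower in polyA RNA, and Hist1h2bc and Hist2h2be were higher in Ago2-IP than polyA control. Of 13 tested members with a stem-loop and at least 100 annotated bases past it, 1 was higher (Hist1h1c) and 1 lower in polyA RNA, and in Ago2-IP against polyA control 1 was higher and 6 lower. Of 7 with a stem-loop and under 100 bases past it, 0 were higher and 5 lower in polyA RNA, and in Ago2-IP against polyA control 1 was higher (Hist1h4h) and 4 lower. Of those 5 and 4, all but Hist1h2ap passed the filter in polyA control alone, as did Hist1h4a and, in the class before, Hist1h1d, Hist1h2ae and Hist1h4c, so no difference between end classes is drawn from these counts; over all genes 19% were higher and 21.5% lower in polyA RNA, and 35.1% and 34.6% in Ago2-IP against polyA control. The counted loci of Hist1h1d, Hist1h1e and Hist1h4d reach only 28, 27 and 25 bases past the stem-loop, where 4884, 1153 and 770 are annotated. Those of Hist1h4c and Hist1h2ae, both called lower in Ago2-IP against polyA control, reach 29 of 454 and 6 of 151, so reads from longer ends of these 5 were not counted.

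The microRNA sequence (RefSeq, GRCm38.p6) was used to look for 2 kinds of 7-base site in the longest annotated 3′UTR of each gene, a match to microRNA bases 2 to 8 and a match to bases 2 to 7 followed by an A. Such a site was present in 4 of 23 tested members with a 3′UTR (17.4%) and 6 of 37 members (16.2%), against 2941 of 13222 tested genes (22.2%). The tested members with a site are Hist1h1d, Hist1h2be, Hist1h4d and Hist4h4. Capitals mark bases 2 to 8 in the microRNA and the 7-base site in the mRNAs, of the first kind in Hist1h1d and Hist4h4 and of the second kind, without a match to base 8, in Hist1h4d. They are shown because a site is where miR-106b could pair, and a site is a description of sequence only.
miR-106b chr5:138165787-138165807 minus strand: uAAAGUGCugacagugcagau
Hist1h1d chr13:23555900-23555906: attctgtGCACTTTgttatgg
Hist1h4d chr13:23582656-23582662: ttatataCACTTTAgggacta
Hist4h4 chr6:136803877-136803883: cctgggtGCACTTTttcattg

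Hist1h1d has 2 sites, 144 and 1752 bases past the stop codon, the first of them printed. Both, and the site of Hist1h4d, lie outside the stretches where reads of these genes were counted. None of these members was called in Ago2-IP RNA with miR-106b. Hist1h1d was called lower in polyA RNA, and in the same fit of all libraries Hist1h2be, Hist1h4d and Hist4h4 were not. Some alternatives did call Hist1h4d or Hist4h4 lower. For Hist1h4d these were leaving out polyA miR-106b replicate 3 (log2 fold change -1.45) and, with all libraries, edgeR's likelihood ratio test (-1.19, edgeR adjusted p = 0.0108). For Hist4h4 they were no filter and the replicate number as a block, both with all libraries.

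Promoters of 300 bases (RefSeq, GRCm38.p6) matched 40 of the 45 members. Searching both strands, a CCAAT box was found in 34 of 40 (85.0%) against 37.9% of 27025 promoters, in each of the H1, H2A, H2B and H3 promoters and in 3 of 9 H4 promoters. TATAAA was in 23 (57.5%) against 14.2%. H2A and H2B genes that stand head to head share part of these stretches, so some sites count for both partners. Hist1h2ak and Hist1h2bn, for instance, share a CCAAT box and a TATAAA, read on opposite strands. The octamer ATTTGCAT, bound by Oct1 in H2B genes, was in 9 (22.5%) against 1.75%, 5 of 8 H2A and 4 of 12 H2B promoters and no other type, and these promoters all hold a CCAAT box too. The E2F-like motifs TTTGGCGC and TTTCCCGC were in 0 and 1 (2.5%) against 0.537% and 1.11%. Capitals below mark the octamer or its reverse, shown because Hist1h2ae and Hist1h2bg share 1 such site, read on opposite strands.
Hist1h2ab chr13:23750949-23750976: gcaggcctttATGCAAATgaggagctca
Hist1h2ae chr13:23571331-23571358: tagaggttctATGCAAATaagggactca
Hist1h2bg chr13:23571331-23571358: tgagtcccttATTTGCATagaacctcta

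H2A and H2B genes stand head to head in 12 pairs, 235 to 305 bases apart, and their counts over the 16 libraries are uneven. Hist1h2ap had 321 counts and its partner Hist1h2br 14, at 235 bases. Hist2h2be had 238 and Hist2h2ac 19, at 238 bases. Hist1h2bj had 79 and Hist1h2ag 5, at 269 bases, while Hist1h2ae and Hist1h2bg had 49 and 42, at 286 bases. Paralogs of the same histone type share reads. The level of a gene with few stretches of its own, and so its count beside its partner, is therefore uncertain. The share of 50-base stretches that occur in no other gene was 100% for Hist2h2be, 91.5% for Hist1h1c and 69.4% for Hist1h2bc, but 53.0% for Hist1h3c, 42% for Hist1h2ab and 26.6% for Hist1h3e.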

How the data were processed

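The integer counts deposited by the authors were used, made with TopHat2 2.0.10 (by the submitters' processing notes) on GRCm38 and HTSeq from single-end reads of 50 bases, not strand-specific. The members and gene lists were chosen with earlier results of these data known. Members: protein-coding genes named Hist1h to Hist4h with at least 10 counts over 16 libraries. Tested were the 14897 of 46078 genes that reached 1 CPM, by library size alone, in 3 or more libraries of a group.

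The 2 miR-106b comparisons used fits of their own 8 libraries, and the ratios 1 fit of all 16. Alternatives were DESeq2 size factors, library size alone, TMM within each RNA kind, no filter, at least 10 counts in every library, the Wald test of DESeq2, the likelihood ratio test of edgeR, a replicate block, other sets of libraries, and each library left out. Summed CPM was also taken over tested members only and without the most abundant. Lists were S-phase replication, cycling cell, variant histones, 3′ processing, chaperones, non-polyadenylated long RNAs, nuclear long RNAs, polyadenylated clustered histones, cardiac muscle, JG, endothelium, red blood cell, macrophage and testis histones. Genes were looked up by name, and no gene in the table has the name Ars2, Gins2 or Cdt1.

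Described library by library were, per histone type, the 2 members with the highest mean CPM, and the 3 with the largest called rise and fall in polyA RNA and in the ratio change. The code was tested on simulated data. Depth per library ran from 2579086 to 9459585 counted reads. R 4.3.3, edgeR 4.0.16, limma 3.58.1, DESeq2 1.42.0, Python 3.11.15, pandas 2.3.3 and matplotlib 3.10.9 were used.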

Additional observations from a re-analysis of the deposited data

Results flagged for a closer look

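In 11 of 92 groups of 4 libraries, 1 library stood far from the other 3, where about 1 in 20 groups would by chance. That rate does not apply to 4 of the 11, Hist1h4a, Hist1h2ab, Hist1h3a and Hist1h2ae, in which 1 library holds 1 or 2 counts and the other 3 hold 0. For Hist2h2be, polyA miR-106b replicate 3 read 4.23 CPM and the others 3.12 to 3.27. Hist1h4a had 0.528 CPM in polyA miR-106b replicate 3 and 0 in the others, and Hist1h2bj 1.59 there with the others at 0 to 0.26. For Hist1h2ab, Ago2-IP control replicate 2 read 0.309 CPM with the others at 0, for Hist1h3a replicate 1 read 0.312 and for Hist1h2ae replicate 4 read 0.236, again with the others at 0. Hist1h2ae also read 1.82 CPM in polyA control replicate 1, the others 0.769 to 0.933.

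Hist1h4c read 1.08 CPM in polyA control replicate 4, under 2 to 2.13 in the others. In Ago2-IP miR-106b, Hist2h4 read 3.53 CPM in replicate 4 (others 1.05 to 1.24) and Hist4h4 4.35 in replicate 2 (others 0.699 to 0.961). The 3 polyadenylated members summed to 81.7 CPM in Ago2-IP miR-106b replicate 1, under 103 to 106 in the others.

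The effect of miR-106b was called different between the RNA kinds for 7 members, as a log2 change of the ratio of Ago2-IP to polyA: Hist1h2bc -1.2, Hist1h1c -0.92, Hist1h1d 2.39, Hist1h2ap 2.43, Hist1h4a 3.60, Hist1h3a 4.00 and Hist1h3c 6.0. The value of Hist1h3c includes a group at 0 counts and is no estimate of size. Calls of Hist1h1d, Hist1h4a and Hist1h3a were lost in 6 of 23, 11 of 22 and 13 of 22 alternatives. DESeq2's Wald test called 4 members and gave no adjusted p for Hist1h4a, Hist1h3a and Hist1h3c.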

How the results depend on the processing

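The 40 member values tried kept their direction under the other choices. Some ratios of summed CPM lie near 1 and fell on both sides of it: all members in polyA RNA 0.731 to 1.13, all members in Ago2-IP RNA 0.98 to 1.15, the 3 polyadenylated members in Ago2-IP RNA 0.931 to 1.01, and the 42 others between RNA kinds with miR-106b 0.895 to 1.25. A ratio further from 1 reversed. All 45 members summed had an Ago2-IP over polyA ratio of 1.28 in control and 0.722 without Hist1h1c, 1.02 by library size alone and 1.03 with TMM within each RNA kind. The same sum in polyA RNA, 1.03, was 0.731 without Hist1h1c, and in Ago2-IP RNA 1.15. The 3 polyadenylated members, 2.8 between RNA kinds in control, gave 2.25 by library size alone and 2.26 with TMM within each kind.

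With at least 10 counts in every library 3 members are tested. Called members were then 2 in polyA RNA, 3 in Ago2-IP against polyA control and 2 in the ratio change. Of all genes tested that way 50.9%, 77.8% and 39.2% were called. With no filter 45 members are tested in place of 24, and 23 were called in Ago2-IP against polyA control, where 33.7% of all genes then tested were called. The ratio change gave 4 with DESeq2's Wald test and 12 with edgeR's likelihood ratio test, where 28.2% and 34.7% of all genes were called. Leaving out each library in turn gave 8 to 15 members in polyA RNA and 0 to 0 in Ago2-IP RNA. Between RNA kinds it gave 12 to 17 in control and 2 to 3 with miR-106b, and for the ratio change 4 to 9. The shares of all genes called, in that order, were 27.7% to 45%, 0% to 0.269%, 65.5% to 71.5%, 40.1% to 47.3% and 22.4% to 32.3%. PolyA RNA with all 16 libraries in 1 fit has an all-gene median of 0.07 in place of -0.05, and 61.4% of calls are higher in place of 47%. The cause of these shifts was not tested.

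The replicate block adds the replicate number to the model. Members called with it were 12 in polyA RNA, 0 in Ago2-IP RNA, 17 and 2 between RNA kinds in control and miR-106b, and 5 for the ratio change. Of all genes 37%, 0.00671%, 68.4%, 44.6% and 26.2% were called, in the same order. Libraries of 1 replicate number share only a number, and 3 of 16 matched their own number best, with correlations of -0.418 to 0.265.

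The limits are these. The libraries hold no renin counts and high levels of cardiac genes, harvest differs between RNA kinds, and nothing says whether the replicates are separate cultures. Most members have few counts, share reads with paralogs and are seen without strand. In polyA RNA a member is seen by its polyadenylated ends or by what passes oligo(dT) without a tail, and these were not separated. Members that pass the filter in polyA control alone cannot show a rise as easily as a fall. No protein, cell cycle phase or poly(A) tail was measured here.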

Other observations

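RNAs without a poly(A) tail give a view of how the RNA kinds treat such molecules. Of 5 tested non-polyadenylated long RNAs, led by Rpph1, Rmrp and Rn7sk, 0 were called in polyA RNA (median -0.25) and 0 in Ago2-IP RNA (0.89). In Ago2-IP against polyA, 2 were higher in control (0.77) and 4 with miR-106b (1.67), and 0 changed their ratio (0.83). Their summed level read 152, 167, 2298 and 3562 CPM in Ago2-IP RNA of control cells and 2599.7, 6168, 2061 and 1123 with miR-106b. In polyA RNA it read 287, 335, 342 and 269.8 CPM in control and 228, 237, 425 and 276 with miR-106b. Ago2-IP control replicates 1 and 2 were low and the other Ago2-IP libraries high. The 42 clustered histone members outside the polyadenylated ones read 26.2, 23.5, 27.4 and 42.7 CPM in Ago2-IP control. With miR-106b they read 35.5, 51, 37 and 29.5 CPM in Ago2-IP RNA. Whether the 42 members follow the non-polyadenylated RNAs over these libraries was not tested.

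Of 5 tested nuclear long RNAs, led by Malat1, Neat1 and Meg3, 1 was higher in polyA RNA with miR-106b (median 0.00) and 0 changed in Ago2-IP RNA (0.34). Ago2-IP against polyA had 2 higher in control (0.29) and 3 with miR-106b (0.65), and the ratio change 1 higher and 1 lower (0.34).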
